A study of Mus musculus with 9 samples.

Results

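The 10 genes described here encode interferon-inducible GTPases of mouse: 7 guanylate-binding proteins (Gbp2, Gbp3, Gbp4, Gbp5, Gbp6, Gbp7 and Gbp9) and 3 immunity-related GTPases (Igtp, Irgm1 and Irgm2). They were chosen by name from a count matrix of 47643 genes, and all 10 were found in it. Hippocampal RNA of 9 mice aged 6 weeks had been sequenced, with 3 libraries in each of 3 groups. MRL/mpj mice are the control strain and carry the wild type genotype. MRL/lpr mice share that background and carry the lpr insertion in Fas, a death receptor gene whose loss lets autoreactive lymphocytes survive, so that the mice develop a lupus-like disease. The sample labels call these mice untreated, whereas the series title calls them PBS treated. MRL/lpr+MSC mice carry the same genotype and received mesenchymal stem cells, whose source, dose and timing are not given in the sources used here. The labels name C57BL/6 as the strain of every mouse, which goes against the MRL names of the groups.

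Both families belong to cell-autonomous immunity. Interferon gamma (IFN-γ) binds its receptor, the kinases Jak1 and Jak2 are activated, and the signal reaches the gamma-activated sequence (GAS) of target promoters. Type I interferons act through a complex that holds Irf9 and binds the interferon-stimulated response element (ISRE), an element that Irf1 also recognises. Guanylate-binding proteins (GBPs) are large dynamin-like GTPases that coat bacteria and parasite vacuoles, and immunity-related GTPases (IRGs) act on the same vacuoles. In the brain these genes are known as a sensitive readout of interferon reaching microglia, astrocytes, endothelium and neurons.

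Library totals ran from 19475804 to 26912031 counts, so a count of 3, taken as the limit of detection, was worth 0.111 to 0.154 CPM (counts scaled to library size) per library. The 8 hippocampal neuron markers, all above 0 in each group, summed to 1725 to 2004 CPM in MRL/mpj, 1122 to 1655 CPM in MRL/lpr and 1251 to 1576 CPM in MRL/lpr+MSC. Choroid plexus RNA varied within groups: its 8 markers summed to 9787 CPM in MRL/lpr replicate 2 and to 4922 CPM in MRL/lpr+MSC replicate 2, against 105 to 1103 CPM in the other 7 libraries. The striatum and thalamus markers, 10 in number, summed to 152 to 192 CPM in MRL/mpj, 274 to 439 CPM in MRL/lpr and 139 to 465 CPM in MRL/lpr+MSC. Fas gave 30 to 43 counts in MRL/mpj, 31 to 65 in MRL/lpr and 19 to 41 in MRL/lpr+MSC, which overlapped; a count over the whole gene does not read the insertion and so checks no label.

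One point on labels precedes the results. A table of values released with the study has columns named MRL/lpr 1 to 3, and in 100% of the 1499 to 1520 genes compared these were constant multiples, within 0.01 on the log2 scale, of the libraries labelled MRL/lpr+MSC 1 to 3. No other library reached more than 4.8% for any of these columns. The lists of changed genes that the study released for MRL/lpr name Ifng, whose reads lay almost wholly in the libraries labelled MRL/lpr, so those lists go with the deposited labels while that table does not. The deposited labels were kept throughout, each group is the set of libraries labelled so, and both comparisons with MRL/mpj are given.

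The promoters of these genes are shown first, because they hold the elements through which interferon acts. RefSeq windows of 250 bases upstream of the annotated start (GRCm38.p6) were matched by symbol for 7 of the 10 members; Gbp4, Gbp6 and Gbp9 were not matched. The ISRE core GAAANNGAAA, searched on both strands, was present in 7 of these 7 members and in 2.98% of 32851 mouse promoter windows of the same length. Members were counted by gene, whereas the share is by window, over 27025 genes. Gbp3 had 2 windows, and its window 2 held neither an ISRE core nor a GAS. The GAS TTCNNNGAA, a palindrome, was present in 4 of the 7 (Gbp5, Gbp7, Igtp and Irgm2) and in 7.02% of all windows. A match is a string of letters and not a bound site. The stretches below hold the ISRE core of each member, written 5′ to 3′ on the gene's strand, with ISRE and GAS matches in capitals. For Gbp2 and Irgm1, where GENCODE places an exon across the element, 30 bases around it are given.
Igtp: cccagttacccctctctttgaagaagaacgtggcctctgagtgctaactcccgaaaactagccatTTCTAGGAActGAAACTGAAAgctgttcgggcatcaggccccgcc
Irgm2: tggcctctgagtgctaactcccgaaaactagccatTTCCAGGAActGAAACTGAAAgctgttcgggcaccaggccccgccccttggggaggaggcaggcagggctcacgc
Gbp7: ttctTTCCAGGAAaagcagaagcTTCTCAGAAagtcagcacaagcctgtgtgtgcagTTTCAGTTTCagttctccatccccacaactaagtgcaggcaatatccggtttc
Gbp3: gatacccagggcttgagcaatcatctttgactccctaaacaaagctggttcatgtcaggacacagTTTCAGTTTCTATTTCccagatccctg
Gbp5: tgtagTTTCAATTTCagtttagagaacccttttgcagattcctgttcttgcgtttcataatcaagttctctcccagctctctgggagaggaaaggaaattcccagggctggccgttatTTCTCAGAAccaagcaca
Gbp2: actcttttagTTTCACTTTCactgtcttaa
Irgm1: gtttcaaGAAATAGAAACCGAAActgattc

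The Igtp stretch lies at chr11:58199446-58199555 and the Irgm2 stretch at chr11:58214867-58214976, both on the plus strand. In each the GAS is followed after 2 bases by the ISRE core. When the windows were laid over each other at a shift of 30 bases, 134 of the 220 bases that overlapped were identical, and 78 of the 80 nearest the Igtp start. Gbp7 (chr3:142530226-142530335, plus strand) had 2 GAS matches upstream of its ISRE core. Gbp3 (chr3:142559934-142560025, plus strand) and Irgm1 (chr11:48871428-48871457, minus strand) had 2 overlapping ISRE cores each. Gbp5 (chr3:142496764-142496899, plus strand) carried its ISRE core farthest from the start, at 165 to 156 bases upstream, and a second GAS outside the printed stretch. Gbp2 (chr3:142620594-142620623, plus strand) had 1 ISRE core and no GAS.

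**Figure D1:**
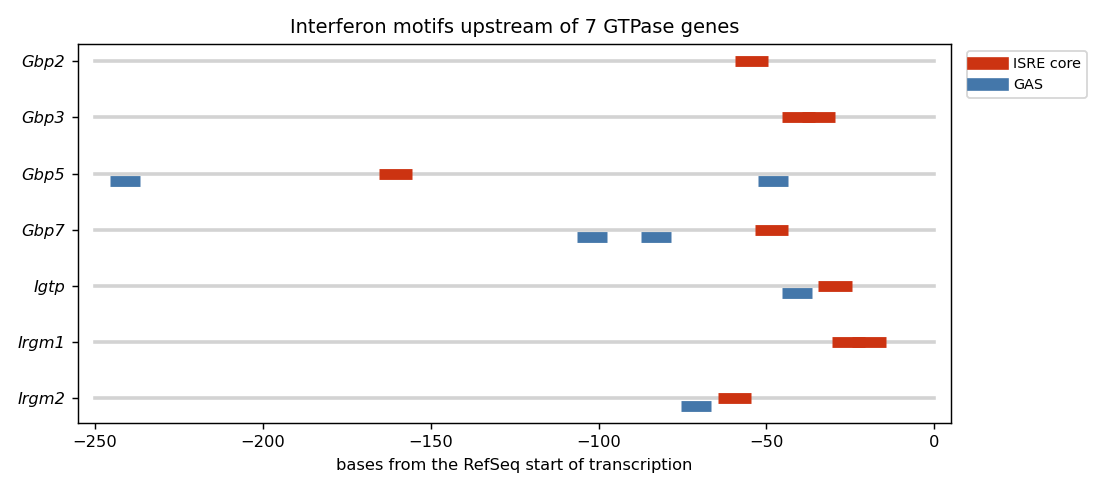
Positions of ISRE core (red) and GAS (blue) matches in the 250 bases upstream of the RefSeq start of 7 GTPase genes, with the x axis in bases from that start and 1 line per gene. All 7 genes hold an ISRE core, and in Igtp and Irgm2 a GAS sits just upstream of it. For Gbp3, which has 2 windows, only window 1 is drawn, and window 2 held no match.

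By position, the members form 4 neighbourhoods of the GRCm38 genome (GENCODE annotation). Gbp5, Gbp7, Gbp3 and Gbp2 lie in that order on chromosome 3, between 142493978 and 142638008, all on the plus strand. Gbp9, Gbp4 and Gbp6 lie on the minus strand of chromosome 5, between 105077630 and 105293698. Igtp and Irgm2 lie side by side on the plus strand of chromosome 11, between 58199556 and 58222782, and Irgm1 lies apart on the minus strand of the same chromosome, at 48861968 to 48871683. All 10 are protein coding. Igtp and Irgm2 share 162 exon bases, Gbp7 shares 11.3% of its exon bases with the gene model Gm43802, and Gbp6 shares 29.0% with Gm43302; the strand used in counting is not stated, so reads from these stretches, and from near-identical family members, are uncertain in their assignment.

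In MRL/mpj hippocampus the family was expressed at a low level, and the order of its members differed from that in MRL/lpr. On the deposited FPKM scale, which corrects for gene length, Gbp2 had the highest mean level in MRL/mpj, at 1.08 ± 0.263 FPKM (SD, n = 3), followed by Gbp3 at 0.994 ± 0.161 and Irgm1 at 0.961 ± 0.0847. Gbp4, at 0.157 ± 0.0722 FPKM, and Gbp6, at 0.0375 ± 0.0254, were the lowest. Of the 9 pairs of neighbours in this order, 3 did not overlap over the libraries: Gbp7 above Gbp9, Gbp5 above Gbp4, and Gbp4 above Gbp6. In MRL/lpr the order was led by Igtp at 13.9 ± 10.5 FPKM and Gbp2 at 11.0 ± 6.27, ahead of Irgm2 at 5.46 ± 3.65 and Irgm1 at 4.76 ± 2.63, and Gbp5 was the lowest at 0.865 ± 0.354. None of the 9 neighbouring pairs was apart over the 3 MRL/lpr libraries. In MRL/lpr+MSC the same 2 genes led, Igtp at 3.13 ± 2.27 and Gbp2 at 2.54 ± 0.892 FPKM, and 2 of the 9 pairs did not overlap.

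The first comparison asked how the MRL/lpr hippocampus differed from that of MRL/mpj at 6 weeks. All 10 members were higher in every MRL/lpr library than in any MRL/mpj library, whereas 19.4% of the 16697 genes tested were separated in that direction. Ratios of the mean CPM ran from 2.06 for Gbp7 to 28.5 for Gbp6. Gbp3, Gbp4, Gbp6 and Gbp9 rose by the call rule, an adjusted p under 0.05 with at least a 1.5-fold change (limma voom with Benjamini-Hochberg adjustment over all genes tested). These 4 of 10 stand against 3.41% of all genes called higher, 569 of 16697. Of the 4, Gbp6 passed the count filter (at least 10 counts, scaled to library size, in 3 libraries) only in MRL/lpr. The median log2 fold change of the members was 2.73, against 0.02 over all genes tested. In bulk tissue, fewer cells of a type and less RNA per cell cannot be told apart.

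Gbp6 (ENSMUSG00000104713) had the largest log2 fold change of the members. It gave 4, 2 and 7 counts in the MRL/mpj libraries and 298, 132 and 68 counts in MRL/lpr replicates 1 to 3. It was thus close to the detection limit in every control and well above it in every MRL/lpr library. Since it was tested only because of its MRL/lpr counts, the direction of its value was fixed by the filter. The log2 fold change was 4.79 ± 1.06 (SE), with an adjusted p of 0.0427 (limma voom, Benjamini-Hochberg). Its chromosome 5 neighbour Gbp4 (ENSMUSG00000079363) was at 0.849, 1.80 and 0.871 CPM in MRL/mpj and at 19.2, 15.4 and 6.89 CPM in MRL/lpr, a log2 fold change of 3.50 ± 0.764. Gbp9 (ENSMUSG00000029298), the third gene of that cluster, was at 3.59, 3.05 and 3.27 CPM in MRL/mpj and at 15.3, 10.8 and 8.32 CPM in MRL/lpr. The change of Gbp9 was smaller, 1.78 ± 0.315, but its replicates were closer together and its adjusted p was the lowest of the family, 0.0233 (limma voom, Benjamini-Hochberg). All 3 chromosome 5 members were called.

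The chromosome 3 cluster holds the GBPs with the best known roles. Gbp3 (ENSMUSG00000028268) was at 2.70, 3.31 and 3.70 CPM in MRL/mpj and at 18.6, 13.8 and 8.62 CPM in MRL/lpr, a rise of 2.05 ± 0.412 in log2 units (adjusted p = 0.0336, limma voom with Benjamini-Hochberg adjustment). Gbp2 (ENSMUSG00000028270), a prenylated GBP that is recruited to parasite vacuoles, was at 2.35, 3.48 and 2.29 CPM in MRL/mpj and at 45.2, 24.8 and 13.7 CPM in MRL/lpr. Its mean was 10.3 times higher, but the spread among MRL/lpr libraries was wide and the adjusted p of 0.0532 (limma voom, Benjamini-Hochberg) missed the threshold. Gbp5 (ENSMUSG00000105504), known for promoting inflammasome assembly, was at 1.65, 2.62 and 2.12 CPM in MRL/mpj and at 7.90, 6.24 and 3.21 CPM in MRL/lpr, a log2 fold change of 1.38 ± 0.433 that was not called. Gbp7 (ENSMUSG00000040253), linked to autophagy and oxidase assembly at vacuoles, had the smallest difference: 4.69, 4.43 and 5.01 CPM in MRL/mpj against 13.5, 10.1 and 5.49 CPM in MRL/lpr. MRL/lpr replicate 3 lay barely above the controls for Gbp7, and its log2 fold change of 0.98 ± 0.385 was not called (adjusted p = 0.144, limma voom with Benjamini-Hochberg adjustment).

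The 3 IRGs are regulators that sit on the cell's own membranes and restrain the effector IRGs. Igtp (ENSMUSG00000078853, also called Irgm3), which sits on the endoplasmic reticulum, was at 0.998, 1.504 and 0.871 CPM in MRL/mpj and at 52.8, 18.95 and 12.97 CPM in MRL/lpr. Irgm2 (ENSMUSG00000069874), a Golgi protein, was at 0.799, 1.63 and 1.14 CPM in MRL/mpj and at 35.3, 16.7 and 8.83 CPM in MRL/lpr. Irgm1 (ENSMUSG00000046879) is known for its part in autophagy and in keeping IRG and interferon responses in check. It started from the highest control level of these 3 genes, 6.04, 5.07 and 5.61 CPM, and was at 45.0, 23.5 and 15.1 CPM in MRL/lpr. The log2 fold changes were 4.42 ± 1.24 for Igtp, 3.93 ± 1.06 for Irgm2 and 2.22 ± 0.581 for Irgm1. None of the 3 was called: the adjusted p was 0.0709 for Igtp, 0.067 for Irgm2 and 0.0623 for Irgm1 (limma voom with Benjamini-Hochberg adjustment). The ratios of the highest to the lowest MRL/lpr library were 4.074, 4.001 and 2.976 in that order.

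**Figure D2:**
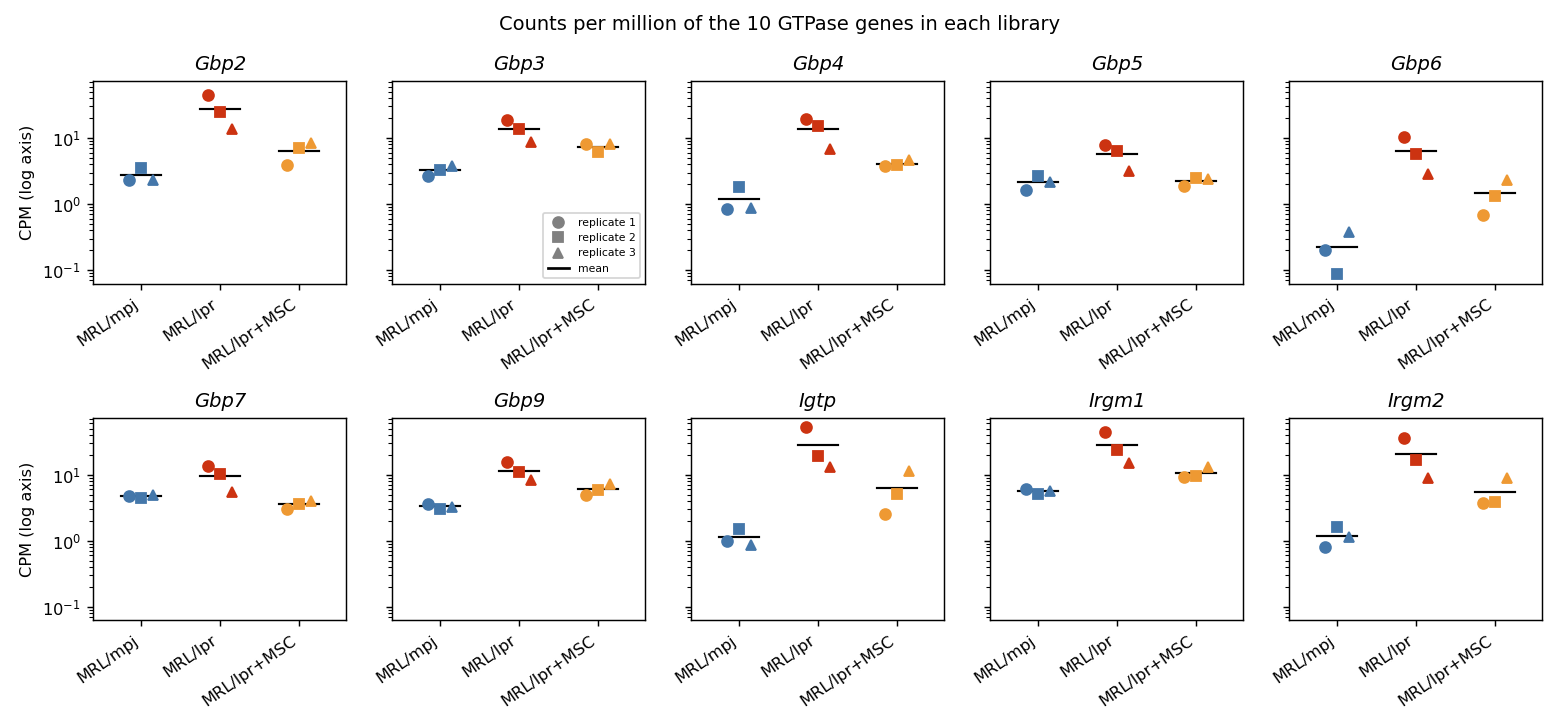
CPM (log axis) of the 10 GTPase genes, 1 panel per gene, with 1 point per library, marker shapes for replicates 1 to 3 and a line at the group mean. All MRL/lpr points lie above all MRL/mpj points in every panel, and within MRL/lpr replicate 1 is highest and replicate 3 lowest.

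The number of members called depended on single libraries. Without MRL/mpj replicate 1, 2 or 3 it was 0 each time, and the genes called in all fell from 967 to 253, 260 and 165. Without MRL/lpr replicate 1, the library with the highest levels, it was 7 (421 genes in all), and without replicate 3, the lowest, it was 10 (1510 genes). Without replicate 2, the library rich in choroid plexus RNA, it was 4 (1695 genes). The direction was positive for all 10 members under each of the 14 alternatives run.

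The same question was asked of the libraries labelled MRL/lpr+MSC. Of the members, 8 were higher in all 3 of these libraries than in any MRL/mpj library (15.2% of the 16196 genes tested), Gbp5 overlapped, and Gbp7 was lower in all 3 (14.4% of genes). Gbp3, Gbp4 and Irgm1 rose by the call rule, 3 of 10 members beside 1.93% of all genes called higher. The median log2 fold change of the members was 1.196, against 0.01 over all genes. Both comparisons use the same 3 MRL/mpj libraries.

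Gbp4 was at 3.73, 3.85 and 4.60 CPM in MRL/lpr+MSC, and its 3 libraries differed by a ratio of only 1.23. The rise was 1.83 ± 0.304 in log2 units (adjusted p = 0.0233, limma voom with Benjamini-Hochberg adjustment). Gbp3, at 7.99, 6.08 and 8.09 CPM, rose by 1.19 ± 0.2, and Irgm1, at 9.23, 9.42 and 13.1 CPM, by 0.93 ± 0.19. These were modest but tight differences. The larger differences were the more variable ones: Gbp6 gave 13, 29 and 53 counts and a log2 fold change of 2.69 ± 0.697, Igtp was at 2.54, 5.06 and 11.45 CPM with 2.27 ± 0.722, and Irgm2 was at 3.68, 3.85 and 9.02 CPM with 2.13 ± 0.515. None of those 3 was called. Gbp2, at 3.89, 7.01 and 8.31 CPM, and Gbp9, at 4.93, 5.94 and 7.16 CPM, lay 2.37 and 1.82 times above the MRL/mpj mean and were not called either.

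Gbp5 and Gbp7 did not follow the others. Gbp5 was at 1.87, 2.51 and 2.43 CPM in MRL/lpr+MSC, within the control range, with a log2 fold change of 0.10 and a 95% interval from -0.48 to 0.69. Gbp7 was at 3.01, 3.62 and 4.02 CPM, below every control library, with a log2 fold change of -0.40 ± 0.171 that was not called (adjusted p = 0.225, limma voom with Benjamini-Hochberg adjustment). Both genes lie in the chromosome 3 cluster, whose median log2 fold change in this comparison was 0.65, against 1.83 for the 3 members on chromosome 5 and 2.13 for the 3 on chromosome 11. In MRL/lpr against MRL/mpj the medians were 1.71, 3.50 and 3.93 in the same order. These medians rest on 3 or 4 genes each and are a description.

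Here too single libraries changed the count of called members. Beside 556 genes in all, no member was called without MRL/mpj replicate 1 (193 genes), MRL/mpj replicate 3 (206 genes) or MRL/lpr+MSC replicate 3 (276 genes). There was 1 without MRL/mpj replicate 2 (201 genes) or MRL/lpr+MSC replicate 2 (359 genes), and there were 8 without MRL/lpr+MSC replicate 1 (1514 genes).

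The third comparison set the libraries labelled MRL/lpr+MSC against those labelled MRL/lpr. All 10 members had lower mean levels in MRL/lpr+MSC, at 0.225 (Igtp) to 0.54 (Gbp3) of the MRL/lpr mean. The groups did not overlap for 9 members, beside 5.71% of the 16758 genes tested, and Irgm2 overlapped, since 9.02 CPM in MRL/lpr+MSC replicate 3 exceeded 8.83 CPM in MRL/lpr replicate 3. No member and no other gene passed the call rule (0.0% of genes, limma voom). The unadjusted p was under 0.05 for 10 of the 10 members, between 0.0146 and 0.0438, and for 647 of all genes tested, of which 442, or 2.64% of genes, were lower in MRL/lpr+MSC. The adjusted p was 0.921 for each member (limma voom, Benjamini-Hochberg).

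The intervals of these differences were wide. For Igtp the log2 fold change was -2.14 with a 95% interval from -4.16 to -0.13, and for Gbp2 it was -2.02, with an interval from -3.52 to -0.53. Gbp9 (-0.91, from -1.60 to -0.22) and Gbp3 (-0.85, from -1.66 to -0.05) had the smallest differences. The median over the members was -1.52, against -0.004 over all genes.

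**Figure D3:**
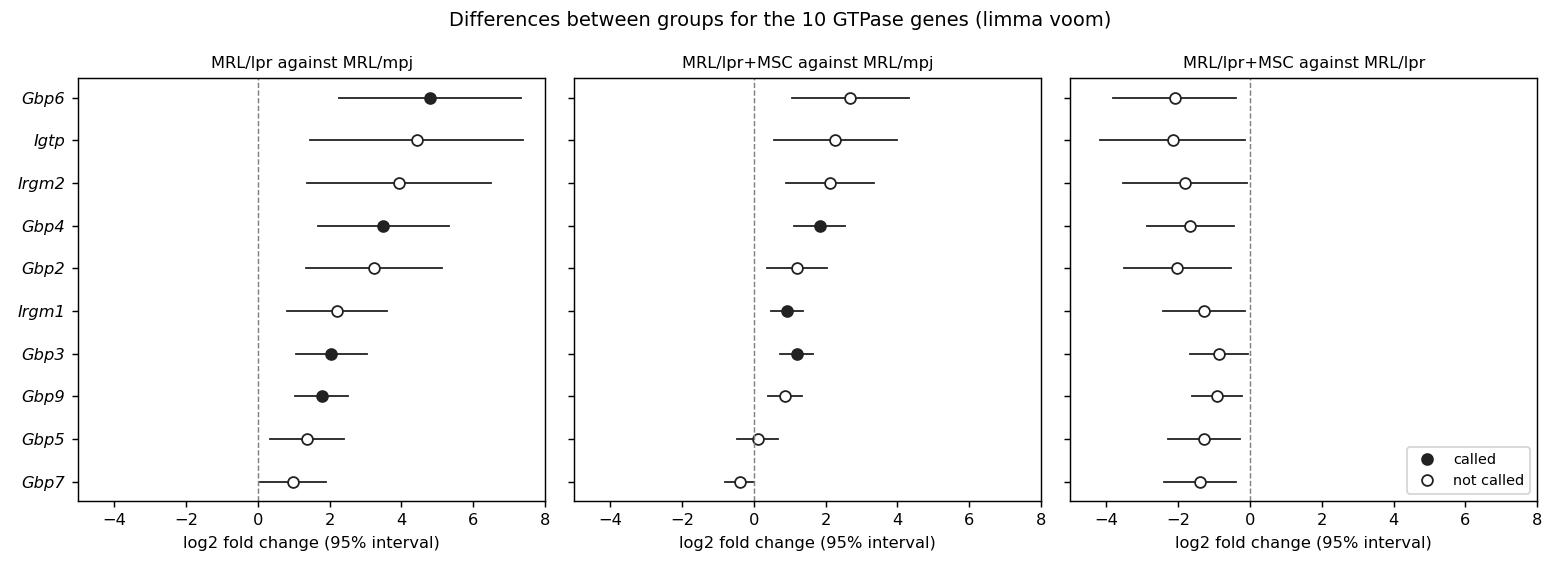
Log2 fold changes of the 10 GTPase genes (points) with 95% intervals (lines) in 3 comparisons, filled where called. The call rule passed 4 genes in MRL/lpr against MRL/mpj, 3 in MRL/lpr+MSC against MRL/mpj and 0 in MRL/lpr+MSC against MRL/lpr, where every point lies below 0.

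Members moved together from library to library within a group. In MRL/lpr, replicate 1 was highest and replicate 3 lowest for 10 of 10 members, and their summed level was 263, 146 and 86.1 CPM in replicates 1 to 3. Among the MRL/lpr+MSC libraries, replicate 3 was highest and replicate 1 lowest for 9 of 10 members, with sums of 41.5, 48.7 and 70.5 CPM. The exceptions were Gbp3, lowest in replicate 2, and Gbp5, highest in replicate 2. In MRL/mpj the sums were 23.9, 27.0 and 25.2 CPM, and no replicate was highest for more than 5 members.

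RNA of lymphocytes varied as well, and the T and NK cell markers had the order of the members in both MRL/lpr groups. These 15 markers summed to 29.9, 18.3 and 8.96 CPM in MRL/lpr replicates 1 to 3, to 3.32, 4.36 and 7.16 CPM in MRL/lpr+MSC and to 2.45 to 2.99 CPM in MRL/mpj, where Cd3g, Cd8b1, Cd2, Gzmb and Ncr1 were at 0 in all 3 libraries. Of the 15, 9 were tested in MRL/lpr against MRL/mpj and 6 were called higher, beside 3.41% of all genes. Among them were the T cell receptor chains Cd3d, Cd3e and Cd3g and the coreceptor Cd8a. These had at most 3 counts in any MRL/mpj library and passed the count filter only in MRL/lpr, which fixed their direction. The 7 B and plasma cell markers summed to 122, 43.9 and 22.9 CPM in MRL/lpr. Their sums were 5.45, 13.9 and 11.2 CPM in MRL/lpr+MSC and 1.29 to 2.35 CPM in MRL/mpj. Of the 5 tested in MRL/lpr against MRL/mpj, 2 were called higher, Cd79a among them, beside 3.41% of all genes. Cd79a, at 3 to 14 counts in MRL/mpj, was tested only because of its MRL/lpr counts. The highest MRL/lpr+MSC library of the B and plasma cell markers was replicate 2, whereas that of the members was replicate 3. The 9 blood myeloid markers summed to 33.0 to 100 CPM in MRL/lpr, 9.39 to 47.1 CPM in MRL/lpr+MSC and 19.6 to 40.6 CPM in MRL/mpj. These sums overlapped, and Ly6g was at 0 in all groups. Of the 8 tested in MRL/lpr against MRL/mpj, 5 had positive and 3 negative values, and 0 were called. Ly6c2 and Ccr2 were higher in every MRL/lpr library than in any MRL/mpj library, 2 of 8 beside 19.4% of all genes. The part of these cells in the GTPase levels was not tested.

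Markers of resident cells were also followed. The 10 microglia markers summed to 294 to 379 CPM in MRL/lpr, 295 to 336 CPM in MRL/lpr+MSC and 344 to 376 CPM in MRL/mpj. None was called in MRL/lpr or in MRL/lpr+MSC against MRL/mpj (0 of 10 each). In MRL/lpr+MSC 5 of 10 lay below every MRL/mpj library, beside 14.4% of the 16196 genes tested. The hippocampal neuron markers had lower sums in both MRL/lpr groups than in any MRL/mpj library. Their values were negative for 8 of 8 in MRL/lpr and for 7 of 8 in MRL/lpr+MSC. Fibcd1, a CA1 marker, was the 1 called lower in each, beside 398 of 16697 and 243 of 16196 genes. The part of these shifts in the GTPase levels was not tested. Within MRL/lpr, replicate 1 was highest for 10 of the 10 microglia markers as well. Within MRL/lpr+MSC, replicate 2 was highest for 9 of the 10, whereas the members were mostly highest in replicate 3. In both comparisons with MRL/mpj, Cldn5 and Kdr were called higher of 10 endothelial markers, and Sox9 of 10 astrocyte markers. Of all genes, 3.41% were called higher in MRL/lpr and 1.93% in MRL/lpr+MSC. The choroid plexus sums did not follow the members: replicate 2 was highest for 8 of 8 choroid markers in MRL/lpr, where the members were highest in replicate 1.

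**Figure D4:**
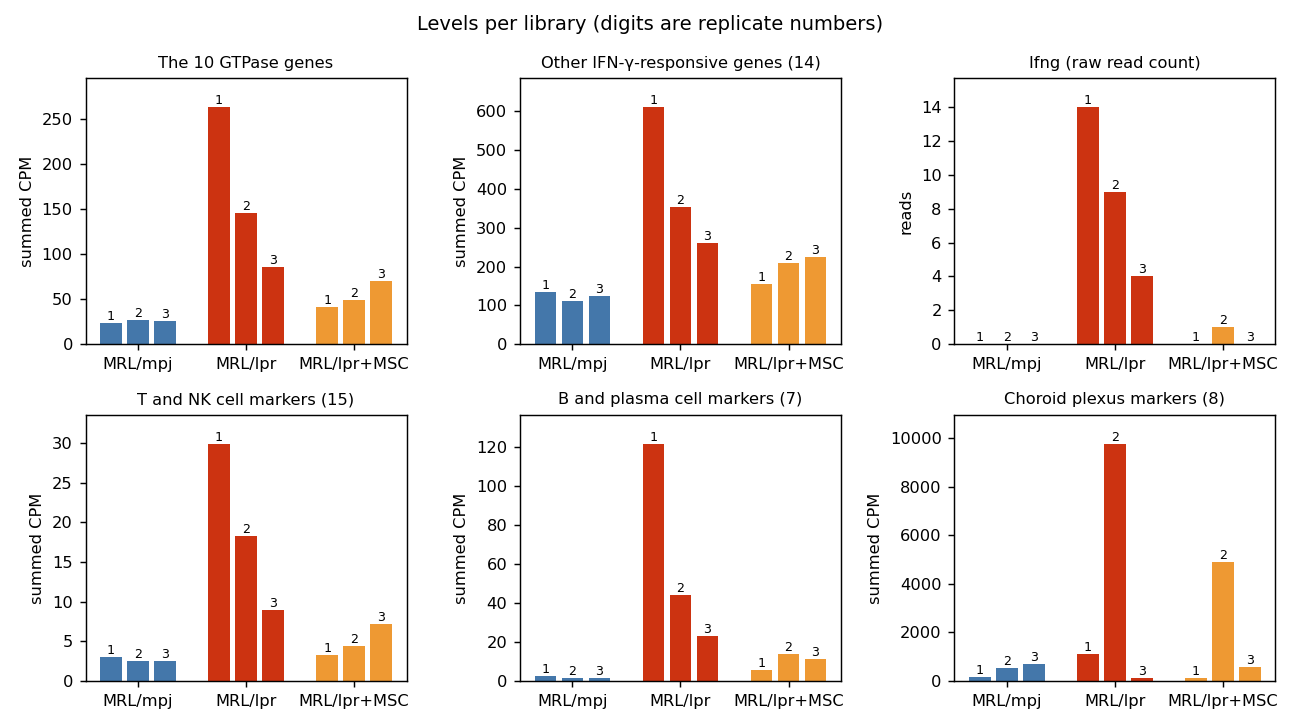
Levels in each of the 9 libraries as bars (summed CPM, or raw reads for Ifng), with replicate numbers above the bars and colours for the 3 groups. The members, the other IFN-γ-responsive genes, Ifng and both lymphocyte lists are highest in replicate 1 and lowest in replicate 3 of MRL/lpr, whereas choroid plexus markers peak in replicate 2.

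Other genes of the same families were next examined, and 8 of the 10 listed were tested in MRL/lpr against MRL/mpj. Positive values were seen for 7 of these 8, with a median of 4.21, and 4 were called higher, beside 3.41% of all genes. The called genes were Gbp8 (4.79 ± 1.06), Gbp10 (5.27 ± 1.25), Tgtp2 (4.396 ± 0.948) and Gm12250 (4.03 ± 0.856), the last 2 being effector IRGs known as Irgb6 and Irgb10. Gbp11 was the exception, with a log2 fold change of -0.58 ± 0.537. Gbp8, Gbp10, Gm12250 and Ifi47 had at most 9 counts in any MRL/mpj library. They passed the count filter only in MRL/lpr, so the filter fixed the direction of their values. Against MRL/mpj, 6 were tested in MRL/lpr+MSC and 3 effector IRGs were called higher, beside 1.93% of all genes. These were Tgtp1 (2.31 ± 0.334), Tgtp2 (2.16 ± 0.359) and Ifi47 (2.91 ± 0.602), while Gbp11 again had a negative value, -1.55 ± 0.515. In that comparison Tgtp2 and Ifi47 passed the count filter only in MRL/lpr+MSC. Tgtp1, at 6, 12 and 9 counts in MRL/mpj, was also tested only because of its MRL/lpr+MSC counts. In MRL/lpr against MRL/mpj, Tgtp1 and Tgtp2, with at most 12 counts in any MRL/mpj library, likewise needed their MRL/lpr counts. Of the 10 listed genes, 5 had a RefSeq window, of which 4 held an ISRE core and 3 a GAS.

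Of the ligands, Ifng, Ifnb1, Ifnl2, Ifnl3, Ifne and Ifnk were examined, and no Ifna gene was. Ifng gave 14, 9 and 4 counts in MRL/lpr replicates 1 to 3, 0, 1 and 0 in MRL/lpr+MSC, and 0 in each MRL/mpj library, where a count of 0 allows up to 3. Ifnb1 was at 0 in all 9 libraries. None of these 6 ligands had enough reads to be tested. The order of the Ifng counts in MRL/lpr was the order of the members.

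No receptor or kinase of the list was called in any comparison. Of Ifngr1, Ifngr2, Ifnar1, Ifnar2, Jak1, Jak2 and Tyk2, 0 of 7 were called in MRL/lpr against MRL/mpj, with log2 fold changes from -0.22 to 0.41. Downstream, 2 of 7 factors were called higher in MRL/lpr, Irf1 and Irf9, beside 3.41% of all genes. Irf1 was at 5.44, 5.72 and 5.44 CPM in MRL/mpj and 19.2, 14.5 and 9.59 CPM in MRL/lpr. The log2 fold changes were 1.35 ± 0.322 for Irf1 and 1.33 ± 0.241 for Irf9. In MRL/lpr+MSC against MRL/mpj the only factor called was Irf7 (1.03 ± 0.21), the amplifier of type I interferon production. This was 1 of 7, beside 1.93% of all genes called higher.

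Of the 5 inhibitors, 2 were called higher in MRL/lpr, beside 3.41% of all genes. Socs1, which blocks JAK kinases, rose by 2.15 ± 0.509. It had at most 10 counts in any MRL/mpj library and was tested only because of its MRL/lpr counts. Usp18, which limits type I receptor signalling, rose by 1.67 ± 0.398. No inhibitor was called in MRL/lpr+MSC. Among 14 other IFN-γ-responsive genes, 14 of 14 had positive values in MRL/lpr with a median of 1.93. B2m, the light chain of MHC class I, was the 1 called (1.96 ± 0.298), beside 3.41% of all genes called higher. Cxcl9 and Cxcl10 had at most 3 counts in any MRL/mpj library. Both passed the count filter only in MRL/lpr, which fixed their direction. Nlrc5, at 5 to 18 counts in MRL/mpj, was also tested only because of its MRL/lpr counts. The chemokine Cxcl9 had the largest value, 7.36, from a control mean of 0.0181 CPM, and was not called. Of the 12 tested in MRL/lpr+MSC, 3 were called higher, beside 1.93% of all genes. They were B2m (0.96 ± 0.193), the peptide transporter Tap1 (1.04 ± 0.197) and the proteasome subunit Psmb9 (1.10 ± 0.205).

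Of the type I interferon-stimulated genes, 19 of 19 tested had positive values in MRL/lpr, with a median log2 fold change of 1.72. In that comparison 8 were called higher, beside 3.41% of all genes. They were Ifit1, Isg15, Oas1a, Ifi44, Rtp4, Zbp1, Cmpk2 and Parp14, of which the nucleic acid sensor Zbp1 rose most, by 4.38 ± 0.995. Zbp1 and Oas1a had at most 6 counts in any MRL/mpj library. They passed the count filter only in the group where they were higher, in each comparison that called them. Ifi44, at 6 to 12 counts in MRL/mpj, was also tested only because of the counts of its higher group in both comparisons. The same held in MRL/lpr for Ifi27l2a, at 2 to 22 counts in MRL/mpj, which was not called. The libraries labelled MRL/lpr+MSC had 4 of 18 called higher, beside 1.93% of all genes. These were Ifit1 (1.45 ± 0.276), Oas1a (2.17 ± 0.381), Ifi44 (2.01 ± 0.345) and Cmpk2 (0.67 ± 0.107). Of the autophagy genes with which the GTPases act, such as Atg5 and Gabarap, 0 of 10 were called in either comparison, and in MRL/lpr they ranged from -0.19 to 0.12. Of 5 inflammasome genes tested, none was called in MRL/lpr, and in MRL/lpr+MSC the adaptor Pycard was called lower, at -1.40 ± 0.278. In that comparison 243 of 16196 genes were called lower.

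**Figure D5:**
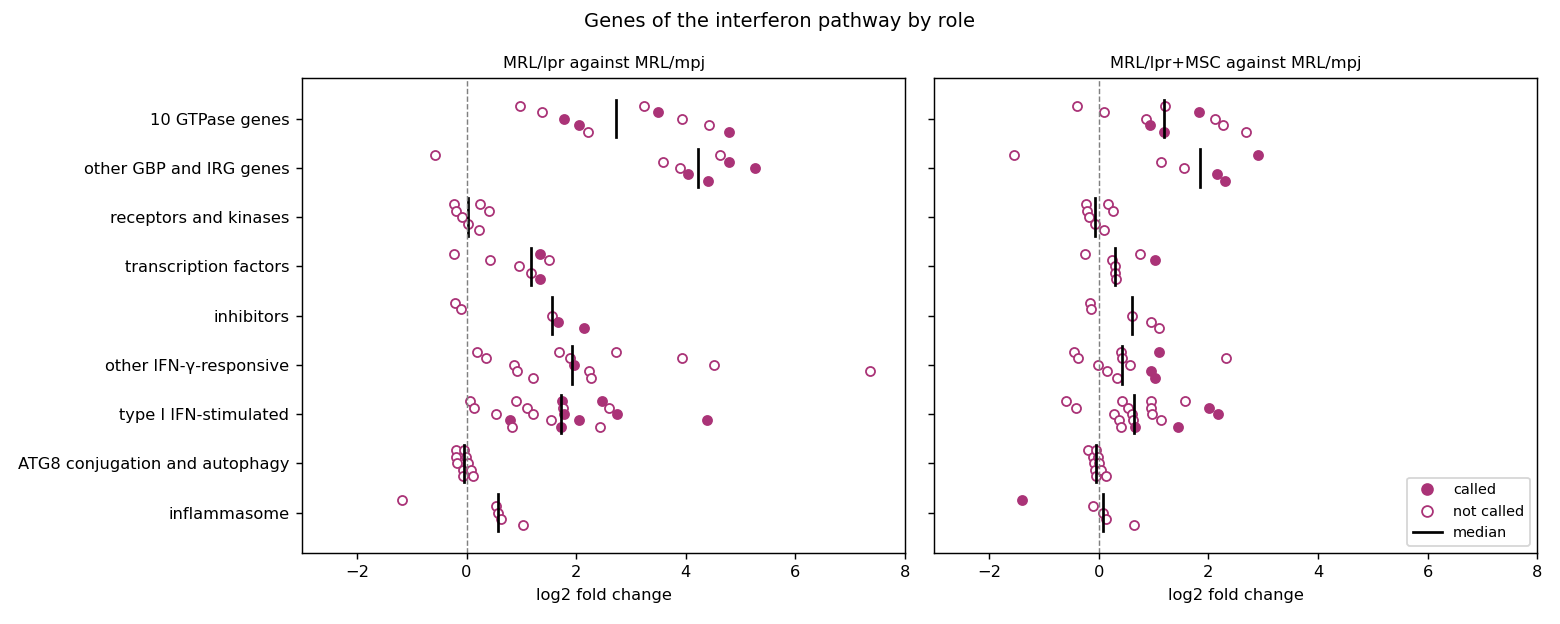
Log2 fold changes of the genes of the interferon pathway, 1 row per role and 1 point per gene tested, filled where called, with a line at the median, for MRL/lpr and MRL/lpr+MSC against MRL/mpj. Receptors, kinases and autophagy genes centre on 0 in both panels, and the GTPase rows lie farthest to the right of the rows in the MRL/lpr panel by their medians.

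Among 14933 genes compared, those whose levels over the 9 libraries were most like the mean of the members were Psmb9, AW112010, Myo1g, Tap1 and H2-Q4. Likeness was the root mean square difference between log2 CPM values centred on each gene's mean, and it was 0.241, 0.315, 0.333, 0.355 and 0.359 for these 5 genes. The members themselves lay at 0.282 for Gbp2, 0.299 for Irgm1 and up to 0.961 for Gbp6. The 9 points share 3 groups, so likeness reflects group differences as well as differences within groups.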

How the data were processed

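Poly-A RNA of hippocampus was sequenced in 9 libraries, 3 per group; a heat map legend of the study gives each column as 1 mouse. The authors deposited raw read counts per gene in a matrix separated by pipe characters, with no scaling. They also deposited FPKM values per library. Per the study's methods, reads were aligned with STAR and counted with HTSeq; the labels' processing notes name TopHat2 instead, with GRCm38. The strand used in counting is not stated. Poly-A selection and flash freezing of whole tissue mean that each value is a tissue average.

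Identifiers were matched to GENCODE symbols (47224 of 47643). Counts were filtered (at least 10 counts, scaled to library size, in 3 libraries and 15 in total), scaled by trimmed means of M values and fitted with limma 3.58.1 voom and robust moderation in R 4.3.3, each comparison on its own 6 libraries, with Benjamini-Hochberg adjustment over all genes tested. limma took the place of a negative binomial count model, which was not run. A gene was called at an adjusted p under 0.05 and a change of at least 1.5-fold. Where a gene passed the count filter only in its higher group, the filter fixed its direction. CPM values use the same scaling over 9 libraries. Intervals are those of the limma fit, and limits of detection cover counting error only. The fit was tested on simulated counts first. Same-numbered libraries were checked for shared deviations.

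The members and all gene lists were chosen with earlier results of these data known. The text names all members, and of the other lists the genes called and those that define a role, and the 5 genes nearest to the members in pattern, by root mean square difference of centred log2 CPM. Alternatives were another scaling, other filters, 1 fit of all 9 libraries, the replicate block, other limma settings and leaving out each library. Single values of a few list genes are not reported here.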

Additional observations from a re-analysis of the deposited data

Results flagged for a closer look

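Gbp7 lay on opposite sides of MRL/mpj in the 2 MRL/lpr groups: every MRL/lpr library was above, and every MRL/lpr+MSC library below, all MRL/mpj libraries. Neither difference from MRL/mpj was called (adjusted p = 0.144 and 0.225, limma voom with Benjamini-Hochberg adjustment), and 19.4% and 14.4% of genes were separated in those directions. The difference between those groups was -1.38 on the log2 scale (SE 0.414, unadjusted p = 0.0146, adjusted p = 0.921, limma voom with Benjamini-Hochberg adjustment), so it was not called. The level in MRL/lpr replicate 3, 5.49 CPM, was close to the highest MRL/mpj level, 5.01 CPM. Gbp7 shares 11.3% of its exon bases with the gene model Gm43802, and the part of that overlap was not tested.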

How the results depend on the processing

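In MRL/lpr against MRL/mpj, 967 genes and 4 members were called. With all 9 libraries in 1 fit 7 members were called, with limma-trend 8, with library quality weights 10 (2065 genes) and when tested against 1.5-fold 0 (104 genes). With the replicate number as a block 8 members were called. Same-numbered libraries correlated between -0.212 and 0.359 in their deviations, and differently numbered ones between -0.418 and 0.227. With 3 libraries per group, these overlapping ranges cannot decide whether the numbers pair the samples. Leaving out 1 library gave 165 to 1695 genes and 0 to 10 members. Between MRL/lpr+MSC and MRL/mpj, 556 genes and 3 members were called. All 9 libraries in 1 fit gave 0 members, limma-trend 5, library quality weights 8 (1177 genes), the 1.5-fold test 0 (100 genes) and the replicate block 0 (283 genes). Leaving out 1 library gave 193 to 1514 genes and 0 to 8 members. For Gbp5 the value of 0.10 turned to -0.0711 when MRL/mpj replicate 1 was left out and was 0.255 at most, with replicate 2 left out. Between MRL/lpr+MSC and MRL/lpr, 0 genes and 0 members were called under every alternative run, and all 140 log2 fold changes were negative. In the first comparison all 140 were positive. Median-of-ratios scaling, no filter and a filter of 1 CPM left the counts of members called at 4, 3 and 0. The treat test, limma-trend and quality weights were chosen after seeing the data. Alternatives with DESeq2 and edgeR were not run. The cause of these shifts was not tested. The 3 libraries per group limit all calls, and Gbp6 in MRL/mpj, at 2 to 7 counts, is near the detection limit. In both comparisons with MRL/mpj, Gbp6 passed the count filter only in the other group.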
